A study of Homo sapiens with 9 samples.

Results

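CD44, CD24, PROM1, THY1, PROCR and EPCAM encode surface proteins that are used to sort stem-like cells, and their transcripts were followed in the breast cancer line B6TC and its 2 parental lines. Every probe set whose platform annotation gave 1 of these 6 symbols was taken, which gave 25 probe sets of the 54613 on the array that were not controls, and 6 of 19775 named genes. CD44 had 13 of them, CD24 had 6, THY1 had 3, and PROM1, PROCR and EPCAM had 1 each. A probe set is a group of short oligonucleotides that reads part of a transcript, and its value is a log2 expression level, so that a difference of 1 is a 2-fold difference.

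CD44 is a receptor for hyaluronan, a sugar polymer of the matrix around cells, and its RNA is spliced into a short standard form and into longer variant forms. CD24 is a small, heavily glycosylated protein held in the membrane by a lipid (GPI) anchor and is abundant on luminal epithelial cells. In breast cancer, cells with high CD44 and low CD24 on their surface have been described as enriched for tumor-initiating cells, whereas EPCAM, an epithelial adhesion protein, marks cells of epithelial character.

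RNA was hybridized to Affymetrix U133 Plus 2.0 arrays, with 3 arrays for each of the 3 lines. The B6TC cells are GFP positive and estrogen-independent, came from a bone marrow variant named B6 that was grown as a tumor in a nude mouse without estrogen, were selected with G418 and resist both G418 and puromycin, and are described as a fusion of the parental lines. The MDA-MB-231/GFP/Neo cells are estrogen receptor (ER) negative and are 1 transfected clone, and the ZR-75-1/GFP/puro cells are ER positive and are a pool of puromycin-resistant transfectants, so all 3 lines carry GFP. The labels call the 3 arrays of a line technical replicates, and the p-values measure only the spread between such arrays. In bulk RNA, fewer cells with a transcript and less of that transcript per cell cannot be told apart.

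The arrays had medians from 4.89 to 4.96, and 33.8% to 34.7% of the probe sets were at a level of 6 or more. Of 7 luminal markers, each read by its probe set of highest mean, 7 were at or above that level in ZR-75-1, 4 in MDA-MB-231 and 5 in B6TC. With ESR1, which encodes ERα, read by 205225_at, its highest probe set in ZR-75-1, the counts were 7, 3 and 4. In both counts the marker that reached the level in B6TC but not in MDA-MB-231 was TFF1, with means of 6.37 and 5.85. Its B6TC arrays were at 5.04, 4.98 and 9.08, so only the third array reached the level. Of 6 mesenchymal markers, 6 were at or above it in both B6TC and MDA-MB-231, and 1 was in ZR-75-1, where the highest was 6.02. None of 4 hematopoietic markers reached it in any line, the highest being 5.68. Of 7 fibroblast and endothelial markers, 2 reached it in B6TC and MDA-MB-231 and 1 in ZR-75-1, with COL1A1 at 7.15, 7.27 and 7.09 and PECAM1 at 6.68, 6.69 and 5.60 in the same order of lines. In 2 control genes read at both ends of the transcript, the 3′ probe set exceeded the 5′ probe set by 0.67 for ACTB and 0.29 for GAPDH in B6TC, by 0.32 and 0.07 in the MDA-MB-231 line and by 0.73 and 0.21 in the ZR-75-1 line. Bacterial poly-A RNA, which is added to a sample before labeling, had a mean over 27 control probe sets of 8.38 ± 0.030 (SD, n = 3 arrays), 5.37 ± 0.023 and 7.02 ± 0.018 in that order, and its part in the differences between lines was not tested. The third B6TC array stood apart from the other 2 at transcripts of ZR-75-1, as described with CD24.

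A probe set was tested where at least 3 of the 9 arrays were at 6 or more, which kept 21095 probe sets. It was called different between 2 lines where the p of a limma fit, adjusted by Benjamini-Hochberg over all of them, was at most 0.05. Of the 25 probe sets, 18 were tested. The 7 below the filter were 6 of CD44 and the 1 of PROM1. All 6 CD24 probe sets passed the filter through their level in ZR-75-1, so that a difference from that line had to follow and is given for its size.

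**Figure D1:**
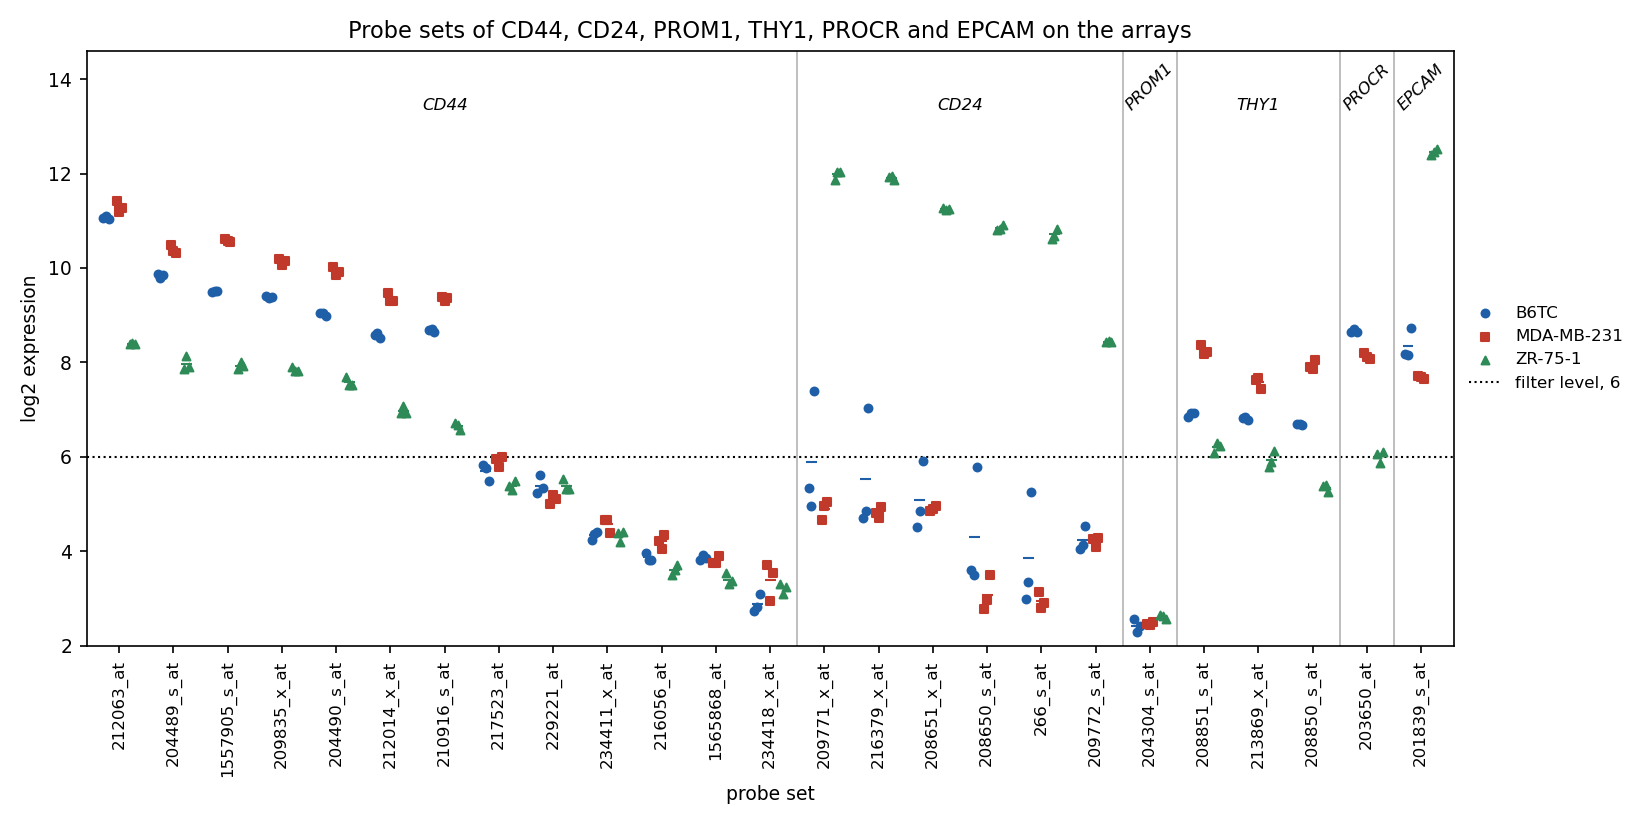
Log2 expression (vertical axis) of the 25 probe sets (horizontal axis, grouped by gene) on the 9 arrays, with 1 point per array, a short bar at the mean of each line and a dotted line at the filter level of 6. B6TC points lie between those of the parental lines at the 7 upper CD44 probe sets and at THY1, and a single B6TC array lies above the MDA-MB-231 arrays at CD24.

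The regions just before the transcription starts of CD44 and CD24 are shown because these genes had opposite orders across the parental lines. They are the 250 bases before 1 annotated start of each gene in RefSeq (GRCh38.p14), CD44 at chr11:35138921-35139170 on the plus strand and CD24 at chr6:106975628-106975877 on the minus strand, written 5′ to 3′ along the gene. Capitals mark GGGCGG, the GC box bound by SP1-type factors, on the strand shown or, as CCGCCC, on the other strand.
CD44: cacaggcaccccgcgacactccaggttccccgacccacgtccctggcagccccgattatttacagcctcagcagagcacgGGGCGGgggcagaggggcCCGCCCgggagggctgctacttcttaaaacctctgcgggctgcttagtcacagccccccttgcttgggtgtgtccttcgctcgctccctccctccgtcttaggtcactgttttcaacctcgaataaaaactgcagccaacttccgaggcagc
CD24: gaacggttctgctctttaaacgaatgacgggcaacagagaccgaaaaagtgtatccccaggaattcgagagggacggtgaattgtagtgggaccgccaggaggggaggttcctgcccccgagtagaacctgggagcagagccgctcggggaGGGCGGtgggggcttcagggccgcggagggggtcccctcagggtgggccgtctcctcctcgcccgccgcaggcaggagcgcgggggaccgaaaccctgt
The CD44 window held 2 GC boxes, 170 and 152 bases before the start, and the CD24 window held 1, 99 bases before it. GGGCGG was, on either strand, in 42.6% of the 35116 RefSeq windows of that length. GC content was 62.4% for CD44 and 65.6% for CD24, against a median of 58.0% over all windows, and the windows held 15 and 20 CpG dinucleotides, against a median of 11. Neither window held CACCTG, the E-box bound by ZEB and SNAIL repressors, which was in 17.5% of all windows on either strand. No match says only that these letters are not in this window. Another annotated CD24 start has that E-box, as CAGGTG, at the far end of its window, and 30 bases there, with the motif in capitals, lie at chr6:106974260-106974289.
CD24, other start: cCAGGTGactacttcccactttcacccaga
The motifs searched do not overlap each other in these windows. Of the 6 genes, 4 matched the promoter table, and THY1 and EPCAM did not.

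CD44 in B6TC lay between the parental lines and, on the log2 scale, closer to MDA-MB-231. All 7 tested CD44 probe sets were lower in B6TC than in the MDA-MB-231 line, by 1.17- to 2.11-fold, and higher than in the ZR-75-1 line, by 2.72- to 6.34-fold. Over all probe sets tested, 65.1% were called between B6TC and MDA-MB-231 (B6TC higher at 33.9% and lower at 31.3%) and 83.7% between B6TC and ZR-75-1 (43% and 40.6%). The arrays of the compared lines did not overlap for 7 of 7 CD44 probe sets in either comparison, and for 70.4% and 86.5% of all. With a minimum of 2-fold, 1 CD44 and 2 THY1 probe sets were called against MDA-MB-231, as were 3.85% of all. B6TC lay between its parents with all 3 differences called at 21.8% of all probe sets and at 7 of 7 for CD44. The 7 CD44 probe sets read the same gene on the same arrays, so they are not independent.

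The most abundant CD44 probe set, 212063_at, was at 11.05, 11.09 and 11.04 on B6TC arrays, at 11.42, 11.19 and 11.26 on those of MDA-MB-231 and at 8.38, 8.42 and 8.38 on those of ZR-75-1. The highest B6TC array was below the lowest MDA-MB-231 array by less than the MDA-MB-231 arrays differed among themselves, and both lines were far above ZR-75-1. The mean was 11.06 ± 0.029 (SD, n = 3 arrays) across B6TC arrays, 11.29 ± 0.12 across MDA-MB-231 arrays and 8.40 ± 0.024 across ZR-75-1 arrays. Its B6TC mean was below that of MDA-MB-231 by 0.23 (95% interval of the difference -0.36 to -0.10, limma adjusted p = 0.00597) and was 2.67 above ZR-75-1 (standard error 0.059, limma adjusted p = 4.03e-11). The parental lines differed by 2.90, or 7.44-fold.

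The probe set 1557905_s_at gave the widest gap to MDA-MB-231. It was at 9.50, 9.51 and 9.51 in B6TC, at 10.61, 10.58 and 10.56 in the MDA-MB-231 line and at 7.85, 8.0 and 7.92 in the ZR-75-1 line. The arrays of a line were close together, and the lines did not overlap. The difference from MDA-MB-231 was -1.08 (standard error 0.048, limma adjusted p = 1.11e-07), and the difference from ZR-75-1 was 1.58, or 2.99-fold.

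The probe set nearest to the level of ZR-75-1 was 204490_s_at, at 9.04, 9.04 and 8.98 in B6TC, at 10.01, 9.86 and 9.91 in the MDA-MB-231 line and at 7.69, 7.52 and 7.52 in the ZR-75-1 line. These lines did not overlap either, and B6TC was 1.44 above ZR-75-1 and 0.91 below MDA-MB-231. The other 4 tested probe sets, 204489_s_at, 209835_x_at, 212014_x_at and 210916_s_at, differed from MDA-MB-231 by -0.55, -0.74, -0.79 and -0.67 and from ZR-75-1 by 1.86, 1.54, 1.60 and 2.03, in the same order. Over the 7, the median difference was -0.74 from MDA-MB-231, where the largest adjusted p was 0.00597, and 1.60 from ZR-75-1, where it was 4.21e-09. The medians over all genes were 0.036 and -0.005. On a linear scale from MDA-MB-231 at 0% to ZR-75-1 at 100%, the B6TC arrays were at 14.9% to 18.7% for 212063_at and at 62.4% to 62.8% for 1557905_s_at. On that scale, which line was nearer thus depended on the probe set.

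**Figure D2:**
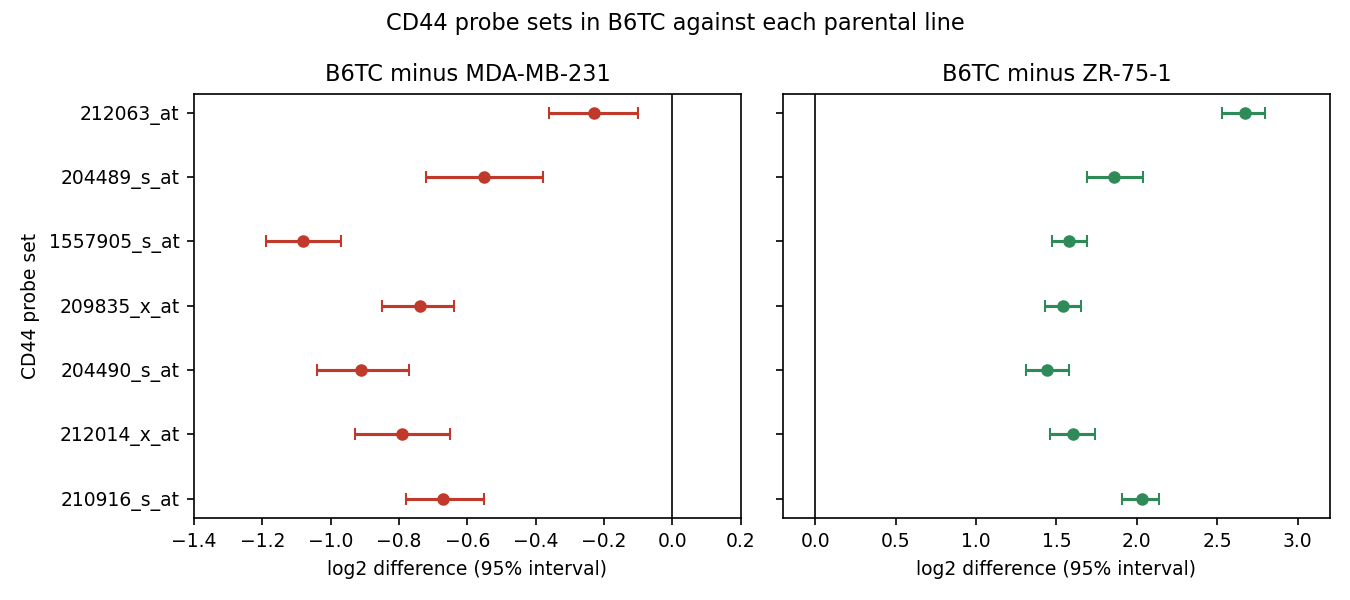
Log2 difference (horizontal axes) of B6TC from MDA-MB-231 (left) and from ZR-75-1 (right) for the 7 tested CD44 probe sets (vertical axis), with the limma 95% interval as bars. Every interval on the left lies below 0 and every interval on the right lies above it, and 212063_at is nearest to MDA-MB-231 at -0.23.

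The CD44 probe sets thus gave the same order of lines but different sizes of difference. Each other tested probe set was therefore set against 212063_at, the one of highest mean, within an array. This ratio was lower in B6TC than in the MDA-MB-231 line for 6 of 6 probe sets, by 0.32 to 0.85 on the log2 scale (median difference -0.54), and the arrays of the lines did not overlap. Against ZR-75-1 it was also lower in B6TC for 6 of 6, with differences of -1.22 to -0.64 (median -1.07), and between MDA-MB-231 and ZR-75-1 the differences were -0.61 to -0.20 (median -0.49). Each exact two-sided permutation p was 0.1, the smallest that 3 arrays against 3 can give, but the sign carries no weight, because 212063_at had the highest value of all 7 in each of the 3 differences. Such ratios did not overlap between lines for 67.6%, 68.8% and 70% of the 7886 probe sets that share a gene with a brighter one, and the absolute difference had a median of 0.30, 0.30 and 0.34. With 204489_s_at as the reference, the medians were -0.21, -0.27 and 0.11, so the ratio between the parental lines turned its sign, and the arrays did not overlap for 5, 5 and 3 of 6 probe sets. The parts of CD44 that each probe set reads are not given in the sources used here. The 3′ to 5′ differences of ACTB and GAPDH varied between the lines too. They were 0.32 and 0.07 in MDA-MB-231, 0.67 and 0.29 in B6TC and 0.73 and 0.21 in ZR-75-1. Their part in the CD44 ratios was not tested.

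The other 6 CD44 probe sets were below the filter. The highest of them, 217523_at, had means of 5.69 in B6TC, 5.92 in the MDA-MB-231 line and 5.39 in the ZR-75-1 line. The lowest, 234418_x_at, had means of 2.89, 3.39 and 3.22. With no filter, 216056_at (by 0.34, limma adjusted p = 0.0161) and 234418_x_at (by 0.50, limma adjusted p = 0.0471) were called lower in B6TC than in the MDA-MB-231 line. Their B6TC means were 3.87 and 2.89, far under the filter level, and at 234418_x_at the arrays of these lines overlapped. Against ZR-75-1, 3 were called higher in B6TC, by 0.27 to 0.46. The share of all probe sets called with no filter is not given here, so these counts have nothing to be set against.

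CD44 binds hyaluronan and other matrix molecules, and 16 of 19 measured genes for its ligands, partners and sheddases were tested. Of these, 7 were higher in B6TC than in the MDA-MB-231 line, 5 were lower and 4 were not called, with a median difference of 0.05, against 65% of all genes called (36.5% higher and 28.5% lower). Those with the largest differences were all higher in B6TC. CEMIP, which takes part in hyaluronan breakdown, had means of 7.30 in B6TC, 5.40 in the MDA-MB-231 line and 3.31 in the ZR-75-1 line, a difference of 1.90 from MDA-MB-231. VCAN, the matrix proteoglycan versican, had means of 6.50, 5.33 and 4.20 and was higher by 1.17. Both genes passed the filter through B6TC alone, so that their excess over each parental line had to follow and is given for its size. HMMR, another hyaluronan-binding protein, was higher by 0.63 and ADAM17, a sheddase, by 0.50. Against ZR-75-1, 11 were higher in B6TC, 3 were lower and 2 were not called, with 84.4% of all genes called (42.8% and 41.6%). The proteoglycan SRGN was higher by 9.45, MSN, which links CD44 to actin, by 7.78, CEMIP by 3.99 and SPP1, the CD44 ligand osteopontin, by 2.63. The hyaluronan synthase gene HAS2 was below the filter, with a highest mean of 5.80, and HAS1 was not analysed here.

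Of 10 tested regulators of CD44 splicing, 1 was higher in B6TC than in the MDA-MB-231 line, 2 were lower and 7 were not called, a called share of 30% against 65% of all genes. The splicing factor RBFOX2 was higher by 0.45, and TRA2A and HNRNPA1, RNA-binding proteins that act on splice site choice, differed by -0.80 and -0.31. ESRP1, the epithelial splicing factor that favors CD44 variant exons, had means of 3.55 in B6TC, 3.56 in the MDA-MB-231 line and 10.13 in the ZR-75-1 line. B6TC was thus 6.58 below ZR-75-1. ESRP1 passed the filter through ZR-75-1 alone, so that this difference had to follow and is given for its size. Against ZR-75-1, 3 of the 10 were higher in B6TC, 5 were lower and 2 were not called, against 84.4% of all genes called. Between the parental lines the counts were 3 higher in MDA-MB-231, 5 lower and 2 not called, with 84.4% of all genes called (42.5% and 41.9%). SRSF1, a splicing factor of the SR family, was lower in MDA-MB-231 than in the ZR-75-1 line by 0.41, and PCBP1, an RNA-binding protein, by 0.45.

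CD24 was low in B6TC and MDA-MB-231 and high in ZR-75-1, and in B6TC it depended on the array. Its brightest probe set, 209771_x_at, was at 5.35, 4.95 and 7.40 on B6TC arrays 1, 2 and 3, at 4.66, 4.96 and 5.05 in the MDA-MB-231 line and at 11.86, 12.03 and 12.04 in the ZR-75-1 line. B6TC arrays 1 and 2 lay at the level of MDA-MB-231 or just above it, array 3 was clearly above both, and all were far below ZR-75-1. The means were 5.90 ± 1.3 (SD, n = 3 arrays), 4.89 ± 0.21 and 11.98 ± 0.10. B6TC exceeded MDA-MB-231 by 1.01 (95% interval -0.10 to 2.12, limma adjusted p = 0.0997), which was not called. It differed from ZR-75-1 by -6.08 (limma adjusted p = 8.28e-07), and by -6.83 without array 3. MDA-MB-231 differed from ZR-75-1 by -7.08, where the low side is under the filter level and near the array medians, so no fold is given. In that comparison 83.7% of all probe sets were called, 43.8% higher and 39.9% lower in MDA-MB-231, and 84.9% had arrays that did not overlap.

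The same split of the B6TC arrays was found at the other CD24 probe sets. On B6TC arrays 1, 2 and 3, 216379_x_at was at 4.70, 4.85 and 7.03, against 4.70 to 4.93 in MDA-MB-231. The probe set 208651_x_at was at 4.52, 4.85 and 5.91, against 4.85 to 4.95. The probe set 208650_s_at was at 3.61, 3.49 and 5.79, against 2.78 to 3.49. In each, array 3 was above every MDA-MB-231 array, and arrays 1 and 2 were within or near their range.

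The probe set 266_s_at was at 2.98, 3.34 and 5.26 on the B6TC arrays, against 2.80 to 3.14 in MDA-MB-231. The dimmest probe set, 209772_s_at, was at 4.05, 4.13 and 4.54, against 4.09 to 4.28. Here too array 3 was the highest of the 3, although at 209772_s_at by much less. Over the 6 probe sets, array 3 exceeded the mean of the other B6TC arrays by 0.46 to 2.26 (median 2.17), and it exceeded the highest MDA-MB-231 array by 0.26 to 2.34. The mean of arrays 1 and 2 differed from MDA-MB-231 by -0.21 to 0.47 and was above it at 3 of 6. These 6 probe sets read the same gene and arrays, and all may bind several transcripts, so they are not independent.

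None of the 6 was called against MDA-MB-231, with an adjusted p from 0.0545 at 208650_s_at to 0.851 at 209772_s_at. The calls depended on the arrays used. The probe set 208650_s_at was called without B6TC array 1, 2 or 3 (differences of 1.56, 1.63 and 0.47, adjusted p = 0.0307, 0.0209 and 0.0365), 209771_x_at without array 2 (1.48, adjusted p = 0.0211) but not without array 3 (0.26, adjusted p = 0.139), and 266_s_at without array 1 (1.35, adjusted p = 0.0237). A robust regression, which weighs down an array far from the others, called CD24 in both directions. It put 208650_s_at (0.66), 209771_x_at (0.46) and 266_s_at (0.39) higher in B6TC and 209772_s_at lower (-0.13, adjusted p = 0.00698), and did not call 216379_x_at (0.03) and 208651_x_at (-0.04). Against ZR-75-1 the 6 differences were -6.85 to -4.20. The ZR-75-1 mean exceeded array 3 taken alone by 3.90 to 5.45.

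On a linear scale on which MDA-MB-231 is at 0% and ZR-75-1 at 100%, the CD24 probe sets of array 3 were at 1.27% to 3.47% (median 2.19%). Array 1 was at -0.606% to 0.278% and array 2 at -0.328% to 0.151%. The same array was high at other transcripts of ZR-75-1. Of 220 further probe sets with a high level in ZR-75-1 and a low one in MDA-MB-231 (mean of at least 8 in the first, under 6 in the second and at least 3 apart), array 3 was above the mean of the others at 207 (94.1%) and was the highest B6TC array at 193 (87.7%), with a median excess of 0.37 and a median position of 1.39% on the linear scale. Over all tested probe sets other than the members, array 3 was the highest at 25.8%. Of 362 probe sets high in the MDA-MB-231 line alone by the same limits, it was the highest at 37 (10.2%), with a median of -0.04.

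The excess of array 3 at 209771_x_at, 2.24, was passed by 4 of those 220 probe sets, and the excess of 0.46 at 209772_s_at by 75. Single luminal markers showed the split to different degrees. TFF1, a secreted trefoil protein induced by estrogen, was at 5.04, 4.98 and 9.08 on B6TC arrays 1, 2 and 3, and CDH1, the epithelial cadherin, at 3.38, 3.26 and 6.89. GATA3, a luminal transcription factor, was at 8.19, 8.22 and 9.54, whereas PGR, the progesterone receptor, was at 3.55, 3.38 and 3.61. The ESR1 probe set 205225_at, with means of 3.31 in the MDA-MB-231 line and 10.16 in the ZR-75-1 line, was at 3.50, 3.53 and 4.26. The ESR1 probe set of highest mean, 211234_x_at, differed little between the parental lines, with means of 6.64 and 7.19, and was at 6.46, 6.21 and 6.24. With ESR1 read by 205225_at, array 3 was the highest of the B6TC arrays in 7 of 7 luminal markers. Read by 211234_x_at, ESR1 was not among them, and at PGR the lead of array 3 was small. The part of these transcripts in the CD24 values was not tested.

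**Figure D3:**
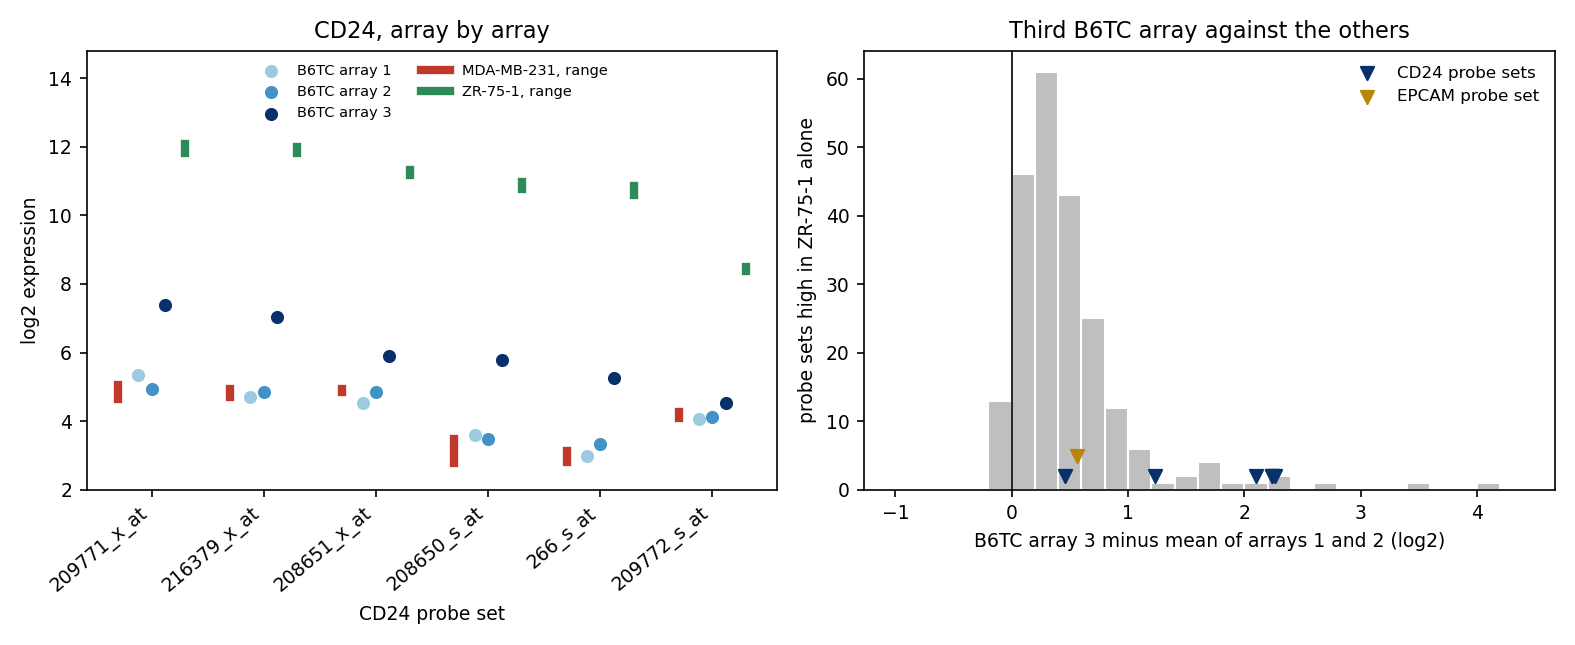
Left, log2 expression (vertical axis) of the 6 CD24 probe sets (horizontal axis) on each B6TC array, as points, with the range of the 3 MDA-MB-231 and the 3 ZR-75-1 arrays as bars. Right, the number of probe sets high in ZR-75-1 alone (vertical axis, 220 in all) by the log2 excess of B6TC array 3 over the mean of arrays 1 and 2 (horizontal axis), with the CD24 and EPCAM probe sets as triangles. Array 3 is the highest B6TC array at all 6 CD24 probe sets, and 207 of the 220 lie above 0.

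EPCAM was far lower in B6TC than in the ZR-75-1 line and slightly higher than in the MDA-MB-231 line. Its probe set 201839_s_at was at 8.18, 8.15 and 8.72 in B6TC, at 7.71, 7.69 and 7.64 in the MDA-MB-231 line and at 12.40, 12.45 and 12.51 in the ZR-75-1 line. Every B6TC array was above every MDA-MB-231 array, array 3 the most, and every one was below ZR-75-1. The excess of B6TC over MDA-MB-231 was 0.67 (standard error 0.13, limma adjusted p = 0.00107) and 0.49 without array 3 (adjusted p = 6.43e-05). It was 17.2-fold lower than ZR-75-1, and MDA-MB-231 was 27.3-fold lower. On the linear scale from MDA-MB-231 to ZR-75-1, the B6TC arrays were at 1.56%, 1.47% and 4.03%.

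EPCAM works at the cell border with claudins, tetraspanins and cadherins, and 12 genes of its partners and of luminal surface proteins were tested. Against MDA-MB-231, 3 were higher in B6TC, 3 were lower and 6 were not called, with 65% of all genes called. Without array 3 the counts were 3 higher and 5 lower. TSPAN8, a tetraspanin, had means of 7.05 in B6TC, 5.93 in the MDA-MB-231 line and 3.08 in the ZR-75-1 line and was the one gene of the list higher in B6TC than in the ZR-75-1 line, by 3.97. The claudin CLDN7, a direct EPCAM partner, was higher in B6TC than in the MDA-MB-231 line by 0.45 (limma adjusted p = 5.58e-05), the receptor ERBB3 by 0.46, and the integrin ITGB4 was lower by 0.40. Against ZR-75-1, 1 was higher and 11 were lower, with a median of -2.46 and 84.4% of all genes called. CDH1 was lower by 7.49, SPINT1, a protease inhibitor of epithelia, by 4.92 and ERBB3 by 4.21. The CDH1 difference depended on the array, with B6TC arrays at 3.38, 3.26 and 6.89 against a ZR-75-1 mean of 12. SPINT1 and ERBB3 passed the filter through ZR-75-1 alone, so that their differences had to follow and are given for their size. Between the parental lines the counts were also 1 and 11, and MUC1, a mucin of the luminal surface, was lower in MDA-MB-231 by 3.76.

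PROCR, the endothelial protein C receptor, which also marks mammary stem cells in the mouse, was highest in B6TC. The probe set 203650_at was at 8.64, 8.70 and 8.65 in B6TC, at 8.20, 8.11 and 8.08 in the MDA-MB-231 line and at 6.07, 5.87 and 6.10 in the ZR-75-1 line. No array of one line reached the range of another, and the B6TC arrays were close together. The excess over MDA-MB-231 was 0.53 (standard error 0.066, limma adjusted p = 5.84e-05, 1.45-fold) and the excess over ZR-75-1 was 2.65 (limma adjusted p = 9.15e-11, 6.27-fold). B6TC was above both parental lines with both differences called at 18.6% of all probe sets.

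Of 8 other measured genes of the protein C pathway, 5 were tested, and 4 were higher in B6TC than in the MDA-MB-231 line and 0 lower, against 36.5% of all genes called higher. TFPI, an inhibitor of tissue factor, was higher by 0.71 (limma adjusted p = 6.49e-07), the thrombin receptor F2R by 0.61, the protein C cofactor PROS1 by 0.30 and F3, tissue factor itself, by 0.26 (limma adjusted p = 0.0459). THBD, thrombomodulin, which binds thrombin to activate protein C, was at means of 6.46 in B6TC and 6.27 in MDA-MB-231 and was not called. All 5 were higher in B6TC than in the ZR-75-1 line, against 42.8% of all genes called higher. F2R was higher by 5.55, F3 by 4.33, TFPI by 2.80, PROS1 by 2.11 and THBD by 1.82. All 5 were also higher in MDA-MB-231 than in the ZR-75-1 line, against 42.5% of all genes. F2R, F3, THBD and PROS1 had ZR-75-1 means of 2.79, 4.49, 4.64 and 5.75 and passed the filter through the other lines. Their differences from ZR-75-1 thus had to follow and are given for their size. PROC, which encodes protein C, was below the filter, with a highest mean of 4.48. With no filter, 8 genes were called between B6TC and ZR-75-1, 5 higher and 3 lower.

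THY1 (CD90), a GPI-anchored protein of mesenchymal and stem cells, lay between the parental lines. The probe set 208851_s_at was at 6.84, 6.92 and 6.92 in B6TC, at 8.37, 8.18 and 8.21 in the MDA-MB-231 line and at 6.08, 6.29 and 6.23 in the ZR-75-1 line. The lines did not overlap, and at this probe set B6TC was nearer to ZR-75-1. It was 2.56-fold lower than MDA-MB-231 (log2 difference -1.36, standard error 0.069, limma adjusted p = 2.22e-07) and 1.62-fold higher than ZR-75-1 (limma adjusted p = 3.92e-06).

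The other THY1 probe sets gave the same order of lines. The probe set 208850_s_at was at 6.70, 6.70 and 6.67 in B6TC, at 7.91, 7.87 and 8.05 in the MDA-MB-231 line and at 5.39, 5.41 and 5.26 in the ZR-75-1 line, and B6TC differed from them by -1.25 and 1.33. The probe set 213869_x_at was at 6.82, 6.84 and 6.77, at 7.63, 7.66 and 7.44 and at 5.79, 5.88 and 6.13 in the same order of lines, with differences of -0.77 and 0.87. On the log2 scale, B6TC was slightly nearer to MDA-MB-231 at these probe sets. On the linear scale from MDA-MB-231 to ZR-75-1, the B6TC arrays were at 69.4%, 69.4% and 70.2% for 208850_s_at, nearer to ZR-75-1. The probe set 213869_x_at was not placed on that scale. At all 3 THY1 probe sets the lines stood apart without overlap. Over all probe sets, arrays did not overlap at 70.4% between B6TC and MDA-MB-231 and at 86.5% between B6TC and ZR-75-1.

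PROM1 (CD133), a membrane protein of stem and progenitor cells, was below the filter on all 9 arrays. Its probe set 204304_s_at was at 2.56, 2.30 and 2.42 in B6TC, at 2.45, 2.44 and 2.50 in the MDA-MB-231 line and at 2.64, 2.63 and 2.57 in the ZR-75-1 line, and it was not tested.

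Of 25 other surface markers of stem and progenitor cells, 13 were tested. Against MDA-MB-231, 5 were higher in B6TC, 4 were lower and 4 were not called, with a median of 0.02, a called share of 69.2% against 65% of all genes. The chemokine receptor CXCR4 had means of 7.34 in B6TC, 4.36 in the MDA-MB-231 line and 9.43 in the ZR-75-1 line, and exceeded MDA-MB-231 by 2.98 (limma adjusted p = 1.90e-08). ENG, the TGF-beta coreceptor endoglin, was higher by 1.33, and the tetraspanin CD9 and the drug transporter ABCG2 were lower by 0.57 and 0.42. Against ZR-75-1, 8 were higher and 5 were lower, with 84.4% of all genes called. NT5E, the ectonucleotidase CD73, was higher by 8.13, the coreceptor NRP1 by 5.30 and the adhesion protein MCAM by 4.45, and the cadherin CDH3 was lower by 3.89. KIT, CD34, LGR5 and NGFR were among the 12 below the filter, with highest means of 3.49, 5.44, 5.78 and 4.12.

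CD24 and THY1 are both held by a GPI anchor, and 18 of 23 other genes for such proteins were tested. Against MDA-MB-231, 4 were higher in B6TC, 8 were lower and 6 were not called, with a median of -0.10, a called share of 66.7% against 65% of all genes. NTM, a neural adhesion protein, had means of 3.28 in B6TC, 7.51 in the MDA-MB-231 line and 3.36 in the ZR-75-1 line and was lower in B6TC than in the MDA-MB-231 line by 4.23, and LYPD1, of the LY6 family, was lower by 2.05. FOLR1, a folate receptor, had means of 10.82, 9.52 and 10.42 and was higher in B6TC by 1.30. Against ZR-75-1, 7 were higher, 9 were lower and 2 were not called, a called share of 88.9% against 84.4%. PLAUR, the urokinase receptor, was higher by 4.11, and LYPD3, also of the LY6 family, and the glypican GPC4 were lower by 3.40 and 3.50. TFPI and NT5E are also in this list. In each list, genes that passed the filter only through 1 or 2 of the lines had to differ from a line under it. The counts thus describe the tested genes.

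**Figure D4:**
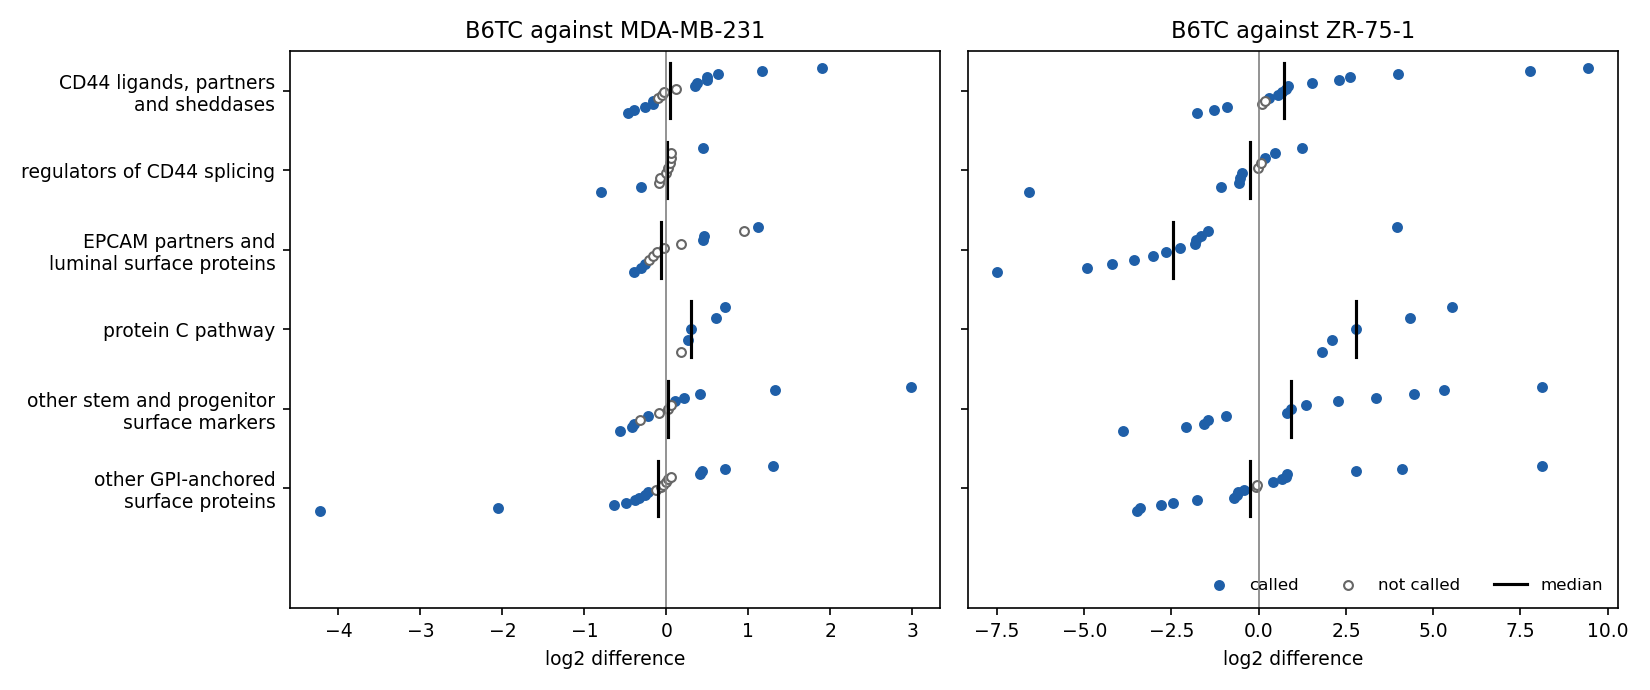
Log2 difference (horizontal axes) of B6TC from MDA-MB-231 (left) and from ZR-75-1 (right) for the tested genes of 6 lists (vertical axis), 1 point per gene, filled where called, with a bar at the list's median. The list medians lie between -0.10 and 0.30 on the left and between -2.46 and 2.80 on the right, and the 2 horizontal axes differ in scale.

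The genes whose pattern was most like each member's were found by the root mean square difference of the values over the 9 arrays, after each probe set was centred on its own mean, so that differences between the arrays of a line count too. For CD44 (212063_at) they were NAMPT (0.0602), an enzyme of NAD synthesis, RUNX2 (0.0874), a bone transcription factor, and ABL2 (0.0960), a tyrosine kinase. NAMPT had means of 10.28 in B6TC, 10.52 in the MDA-MB-231 line and 7.67 in the ZR-75-1 line. For CD24 the likest was TPD52L1, of the tumor protein D52 family, with a difference of 0.174. It was at 5.79, 5.70 and 8.01 on B6TC arrays 1, 2 and 3. Because these genes were picked for their likeness to CD24 on the same arrays, a high array 3 is no separate support for the split. The next were SULF2 (0.393), an extracellular sulfatase, at 3.72, 3.59 and 5.87 on these arrays, and HENMT1 (0.423), an RNA methyltransferase.

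For EPCAM the likest genes were SMIM14 (0.138), which encodes a small membrane protein, ERBB3 (0.181) and FBXL16 (0.204), of the F-box family. For PROCR they were IFIT2 (0.0491), an interferon-induced gene, CYBRD1 (0.0767), an iron reductase, and NAGS (0.0776), an enzyme that primes the urea cycle. IFIT2 had means of 7.73 in B6TC, 7.21 in the MDA-MB-231 line and 5.13 in the ZR-75-1 line. For THY1 they were the interferon-regulated factor IRF1 (0.154), the growth factor BMP4 (0.154) and APOBEC3C (0.165), a cytidine deaminase. BMP4 had means of 7.91, 9.12 and 6.95 in the same order of lines.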

How the data were processed

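The authors deposited log2 expression values. The submitters' processing notes give RMA in Affymetrix Expression Console as their source, whereas the methods name GC-RMA, and the values were used as given. The RNA kit also differs between the labels and the methods. Symbols came from the platform annotation, updated by gene identifier, and only probe sets with 1 symbol (41091) were named. Each line was given 1 mean in limma 3.58.1 (R 4.3.3) over all 9 arrays, with 6 residual and 3.68 prior degrees of freedom, and p-values were adjusted by Benjamini-Hochberg over the 21095 probe sets. A gene of a list was represented by its tested probe set of highest mean. Named were all probe sets of the 6 genes, the 4 called genes of each list with the largest absolute difference per comparison, and the 3 likest genes of each member. Lineage markers were named from a list, and a further ESR1 probe set, THBD, HAS1, HAS2, PROC, KIT, CD34, LGR5 and NGFR were added after their values were seen. The members and lists were chosen with earlier results of these data known. No dates were given, so the arrays could not be grouped by date, and the number of arrays limits the precision. The fit was tested on simulated data.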

Additional observations from a re-analysis of the deposited data

How the results depend on the processing

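The results were computed again under 12 other settings and without each of the 9 arrays in turn. CD44, PROCR, EPCAM and THY1 kept their direction and their side of the adjusted p threshold in each comparison under all of them that gave a value. The 2-fold minimum was not met against MDA-MB-231 by CD44 at 212063_at (-0.23), PROCR (0.53) and EPCAM (0.67). Against ZR-75-1 it was not met by THY1 at 208851_s_at (0.70). Between B6TC and MDA-MB-231, CD24 at 209771_x_at was called in a robust regression (0.46, adjusted p = 0.0269) and with a trended variance (1.01, adjusted p = 0.0428), and without single arrays its difference ranged from 0.26 to 1.48, called only without B6TC array 2 (adjusted p = 0.0211), whereas 208650_s_at was called without each of the B6TC arrays in turn and 266_s_at without array 1. All 6 CD24 probe sets may bind several transcripts by the suffix of their names, as may those of EPCAM and THY1, so these genes had no value without such probe sets, and the calls among all 6 genes then numbered 2, 2 and 2 in place of 12, 18 and 18 for B6TC against MDA-MB-231, B6TC against ZR-75-1 and MDA-MB-231 against ZR-75-1. With a 2-fold minimum, 3 of the 12 calls against MDA-MB-231 were left, none of them higher. Without single arrays the calls numbered 12 to 14 in that comparison. With no filter, the protein C pathway had 8 calls in place of 5 between B6TC and ZR-75-1, where more genes entered the test. With a filter on level and variation, in which fewer genes were tested, the regulators of CD44 splicing had 3 calls in place of 8 between B6TC and ZR-75-1 and 3 in place of 8 between the parental lines, and a robust regression gave 5 in place of 3 between B6TC and MDA-MB-231, the cause of which was not tested. With 204489_s_at as the reference, the median ratios within CD44 were -0.21, -0.27 and 0.11, in place of -0.54, -1.07 and -0.49, and the last was reversed. Over all probe sets, 813, 6484 and 6635 were called with a 2-fold minimum in place of 13742, 17650 and 17665, against 4897, 7191 and 7207 with the filter on variation and 7507, 9874 and 9858 without probe sets that may bind several transcripts.

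For arrays of the same number, the correlation of their deviations from the line means was -0.102 to 0.176 over 9 pairs. For arrays of different numbers it was -0.210 to 0.225 over 18 pairs, a range that holds the first. Whether arrays of the same number shared a batch cannot be decided from these ranges, because each line had few arrays and no dates were given. With the replicate number as a block, the excess of 209771_x_at in B6TC over MDA-MB-231 was 1.01 (limma adjusted p = 0.0692), 208650_s_at was called (limma adjusted p = 0.0235), and 13 probe sets of the 6 genes were called in place of 12. The probe set 208650_s_at was also called with arrays centred on their medians (limma adjusted p = 0.0417) and after another quantile normalization (limma adjusted p = 0.0472). The means of PROM1 in all lines and of CD24 in both B6TC and MDA-MB-231 were under the filter level of 6, where small differences are hardest to measure.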
